A study of Mus musculus with 15 samples.

Results

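The genes described here encode the Twist, Snail and AP-2 transcription factors of the neural crest, 7 in all: Twist1, Twist2, Snai1, Snai2, Tfap2a, Tfap2b and Tfap2c. They were taken by gene symbol from the array's probe annotation, which gave them 13 of the 45101 probe sets on the array (2 for Twist, 3 for Snail and 8 for AP-2 genes). RNA of the first branchial arch of E10.5 mouse embryos was hybridised to 15 Affymetrix arrays in 5 groups of 3. The groups were the mandibular (lower jaw) branch of Dlx5/6 mutants, the maxillary (upper jaw) branch labelled KO, the wild-type (WT) mandibular branch, and a pair of WT maxillary groups labelled WT_MXA and WT_MXA2, here called set 1 and set 2. The KO labels did not name the lost gene, and the shared description named dlx2, dlx1/2 and Dlx5/6 mutants as a plan. The strain, the alleles and whether the arrays came from separate pools of embryos are not given in the labels, so p-values measure only the spread between these arrays, which may be technical.

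Cranial neural crest cells leave the dorsal neural tube, migrate into the first arch and form most of its mesenchyme, while ectoderm and endoderm cover it. Twist1 and Twist2 are basic helix-loop-helix proteins that pair with E proteins and bind E-boxes, and Twist1 is required in mouse crest-derived mesenchyme of the face and skull. Snai1 and Snai2 (also called Slug) are zinc finger repressors that also bind E-boxes and are known for repressing E-cadherin during epithelial-mesenchymal transition. Tfap2a, Tfap2b and Tfap2c are AP-2 proteins, which bind GC-rich palindromes as dimers and act in both the crest and the surface ectoderm. The Dlx genes encode homeodomain proteins, which bind sites with a TAAT core, and their nested expression sets the upper and lower jaw apart.

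Promoters were shown because Dlx, Twist, Snail and AP-2 proteins each have a short recognition sequence that can be looked for in them. RefSeq promoters on GRCm38.p6, of 300 bases each (250 before and 50 after the start), were found for 5 of the 7 genes, with 2 starts for Tfap2a. In the first 2 lines below the capitals mark the homeodomain core TAATTA or TAATTG on either strand, and in the Snai1 line they mark the E-box CANNTG. The Tfap2a line is chr13:40734871-40735170 on the minus strand, the Tfap2b line chr1:19211804-19212103 on the plus strand, and the Snai1 line chr2:167537945-167538244 on the plus strand.
Tfap2a: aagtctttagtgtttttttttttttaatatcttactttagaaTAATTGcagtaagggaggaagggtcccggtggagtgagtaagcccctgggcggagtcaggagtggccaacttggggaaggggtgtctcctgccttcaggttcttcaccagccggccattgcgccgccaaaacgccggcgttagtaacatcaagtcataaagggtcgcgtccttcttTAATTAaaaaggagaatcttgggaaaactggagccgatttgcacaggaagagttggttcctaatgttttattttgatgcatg
Tfap2b: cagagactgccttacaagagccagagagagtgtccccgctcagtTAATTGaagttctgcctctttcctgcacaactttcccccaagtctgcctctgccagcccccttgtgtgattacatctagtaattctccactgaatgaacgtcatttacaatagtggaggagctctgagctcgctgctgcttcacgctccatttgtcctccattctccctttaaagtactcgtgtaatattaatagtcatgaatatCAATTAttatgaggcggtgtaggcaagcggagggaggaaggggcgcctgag
Snai1: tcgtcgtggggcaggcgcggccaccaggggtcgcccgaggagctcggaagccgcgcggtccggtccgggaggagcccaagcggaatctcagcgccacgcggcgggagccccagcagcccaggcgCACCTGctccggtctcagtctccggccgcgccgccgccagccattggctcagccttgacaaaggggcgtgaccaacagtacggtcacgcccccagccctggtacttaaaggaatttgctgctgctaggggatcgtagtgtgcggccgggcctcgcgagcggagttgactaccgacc
The homeodomain core stood 2 times in the first Tfap2a promoter, starting at bases -208 and -32 from the start, and 2 times in the Tfap2b promoter, at -206 and -1. It was in 12.4% of the 32851 RefSeq promoters of this length, and in none of the Twist1, Twist2, Snai1 and second Tfap2a promoters. The Snai1 promoter held an E-box, CACCTG, at -126 and an AP-2 palindrome (GCCNNNGGC), GCCATTGGC, at -87. E-boxes were in 72.3% of all such promoters and the palindrome in 16.6%, and the 2 kinds of motif did not overlap in the Snai1 line. The Tfap2b promoter held an E-box, CATTTG, at -58, and the Twist2 promoter a palindrome, GCCCCTGGC, at -80. These matches are a description of letters in the window and were not set against binding data.

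The targeted genes followed the Dlx5/6 label. Dlx5 averaged 10.9 ± 2.97 units of deposited signal in Dlx5/6 mutant mandibular arrays and 727 ± 40.5 in WT mandibular arrays, and Dlx6 averaged 3.32 ± 1.52 and 249.6 ± 51.3 in the same 2 groups (SD, n = 3 each). In the arrays labelled KO, Dlx2 averaged 3.36 ± 0.180 against 422 ± 20.1 in WT maxillary set 2, and Dlx1 averaged 209 ± 11.7 against 711 ± 30.8 (SD, n = 3 each). Dlx5 was lower in KO arrays too, at 33.5 ± 5.98 against 117 ± 24.6 in set 2. Dlx6 was dim in both groups, at 15.6 ± 12.5 and 29.2 ± 5.08, and its arrays overlapped. In Dlx5/6 mutant mandibular arrays Dlx1 was higher, at 814 ± 34.1 against 482 ± 6.90 in WT mandibular arrays, while Dlx2 overlapped. Spike-in controls split the arrays by group. The bacterial dap control ran at 2672 to 3035 on the 6 KO and set 2 arrays, and at 282 to 364 on the 9 mandibular and set 1 arrays. The KO arrays were therefore set against set 2 and the mandibular arrays against set 1, and comparisons across the spike-in split are given as a second reading, since there array set and group cannot be told apart. Correlations of log2 signal ran between 0.984 and 0.990 for arrays of one group and between 0.971 and 0.987 for arrays of different groups, so the ranges overlapped. The median signal of an array ran between 26.6 and 33.4.

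All 13 probe sets passed the filter on dim signals, and their signals lay between the 56.2 and the 97.7 percentile of an array. Each gene is represented by its brightest probe set, and its other probe sets are given beside it. Levels of different probe sets are not compared, because probes differ in how brightly they bind. Changes are differences of normalised log2(signal + 32) with the limma SE and a probe set counts as called where its adjusted p was under 0.05. Each array held RNA of many cell types, so fewer cells of a type and less RNA per cell cannot be told apart in any result below.

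Loss of Dlx5/6 was accompanied in the mandibular branch by higher Twist1 and Snai1. Twist1 signals were 1922, 1767 and 1835 in Dlx5/6 mutant mandibular arrays, against 1284, 1273 and 1486 in WT mandibular arrays. The groups did not overlap, and all 3 mutant arrays were above the highest WT array. The log2 difference was 0.45 ± 0.07, a 1.36-fold rise (limma adjusted p = 0.000597), with a 95% interval of 0.29 to 0.60. Snai1 signals were 219.7, 252 and 292 in the mutant, against 178, 156 and 154 in WT mandibular arrays. These groups did not overlap either, and the log2 difference was 0.56 ± 0.11, a 1.48-fold rise (limma adjusted p = 0.00517). Without mutant array 3, the brightest for Snai1, its difference was 0.48 and the limma adjusted p was 0.0501.

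These were 2 of the 7 genes, both higher, beside 3.24% of the 13934 genes called in either direction in this comparison. The median difference of the 7 genes was 0.21, beside -0.01 over all genes. Twist2, the close relative of Twist1, had signals of 506, 680 and 629 in the mutant, against 802, 695 and 626 in WT mandibular arrays, and these overlapped. Its log2 difference was -0.22 ± 0.09 (limma adjusted p = 0.264), opposite in sign to that of Twist1. Snai2 read by the probe set 1447643_x_at gave 1647, 1674 and 1552 in the mutant, against 1484, 1376 and 1324 in WT mandibular arrays. The groups did not overlap, but the difference of 0.21 ± 0.06 missed the threshold (limma adjusted p = 0.0774). The other Snai2 probe set, 1418673_at, gave -0.10 ± 0.14, so the Snai2 probe sets disagreed in sign here.

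For the AP-2 genes no probe set was called between Dlx5/6 mutant and WT mandibular arrays. Tfap2a gave 255, 236 and 254 in the mutant, against 211, 198 and 204 in WT mandibular arrays on 1421996_at, which did not overlap, and the difference of 0.26 ± 0.09 had a limma adjusted p of 0.160. Its probe set 1426048_s_at gave 0.39 ± 0.11 (limma adjusted p = 0.0647), and 1421995_at gave 0.23 ± 0.14. The mutant arrays lay above the WT arrays on the first 2 of these probe sets, and on the third 1 mutant array fell just below the highest WT array in deposited signal. The Tfap2b probe sets gave -0.02 ± 0.12 and 0.38 ± 0.12, and the 3 Tfap2c probe sets gave 0.07 ± 0.12, -0.01 ± 0.14 and 0.05 ± 0.12. For Tfap2c the interval on the brightest probe set ran between -0.19 and 0.32.

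**Figure D1:**
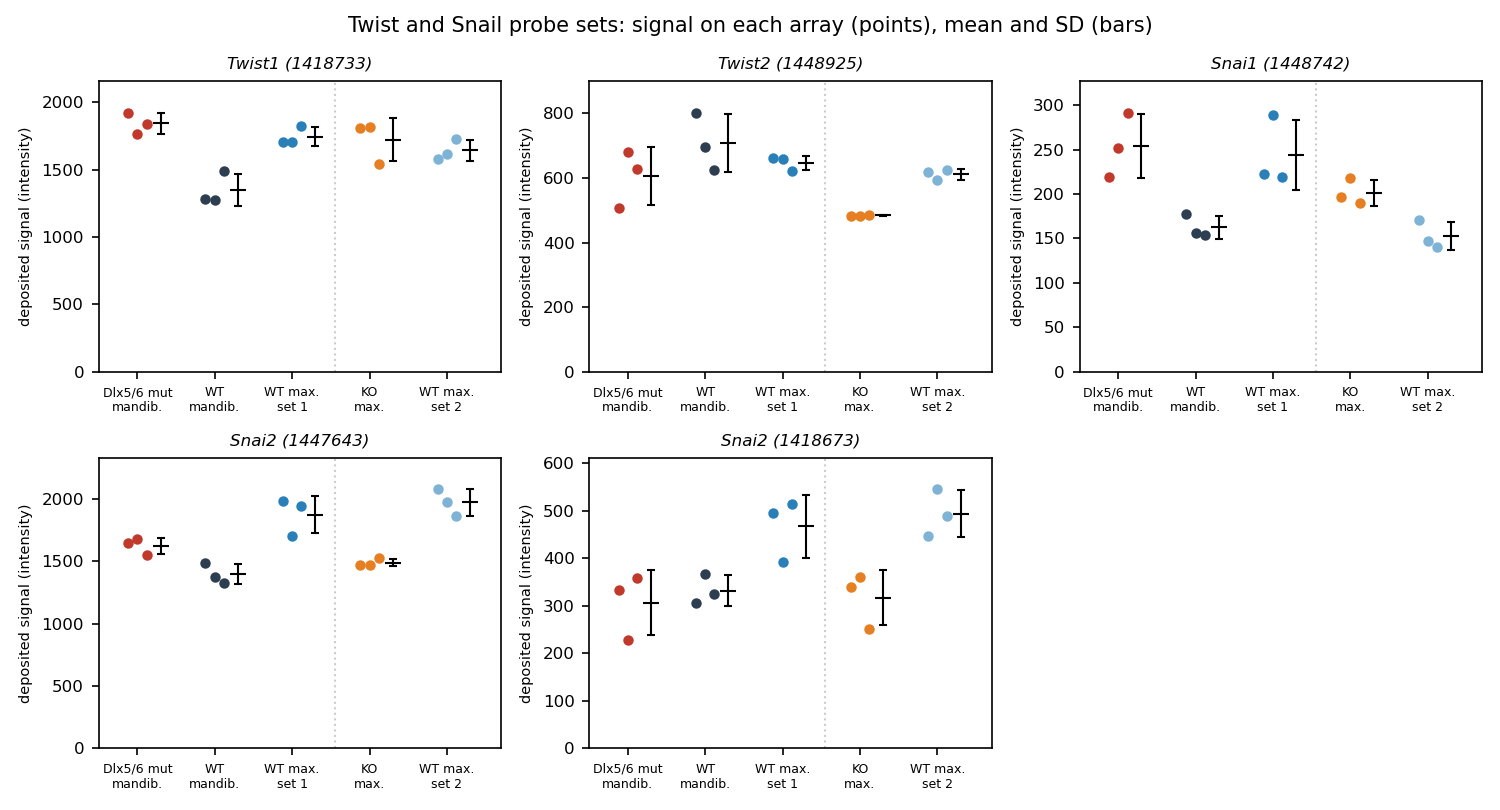
Deposited signal (linear, axis starting at 0) of the 5 Twist and Snail probe sets in each array; points are arrays, bars are group means with SD (n = 3), and the dotted line separates the spike-in array sets. The 3 Dlx5/6 mutant arrays lie above the 3 WT mandibular arrays for Twist1 and Snai1, and the KO arrays lie below WT maxillary set 2 for both Snai2 probe sets.

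In the maxillary branch Tfap2a was higher in KO arrays than in WT maxillary set 2, and Tfap2c and Snai2 were lower. Tfap2a signals on 1421996_at were 437, 352 and 404 in KO arrays, against 231, 254 and 268 in set 2. The lowest KO array was above the highest set 2 array, and the log2 difference was 0.62 ± 0.09, a 1.53-fold rise (limma adjusted p = 0.000494). The probe set 1426048_s_at read 274, 342 and 326 in KO arrays, against 203, 181 and 197 in set 2. It rose by a like amount, 0.62 ± 0.11 (limma adjusted p = 0.00334). The third and dimmest Tfap2a probe set, 1421995_at, gave 51.7, 45.2 and 59.9 in KO arrays, against 44.7, 50.4 and 41.4 in set 2, which overlapped, and a difference of 0.07 ± 0.14 (limma adjusted p = 0.920).

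Tfap2c signals on 1436392_s_at were 112, 113 and 138 in KO arrays, against 230.5, 217 and 248 in WT maxillary set 2. The groups were well apart, and the log2 difference was -0.81 ± 0.12, which is 1.75-fold lower in KO (limma adjusted p = 0.000546). On 1418147_at, KO arrays read 81.4, 81.0 and 52.0, against 127.7, 111 and 112 in set 2, and the difference was -0.58 ± 0.14 (limma adjusted p = 0.0444). That call was lost when any 1 of the 6 arrays was left out, with adjusted p between 0.0523 and 0.234. The third Tfap2c probe set, 1448977_at, gave -0.27 ± 0.12 (limma adjusted p = 0.456). All 3 thus pointed the same way but differed in size, and the brightest is of a type that can bind transcripts of more than one gene or form.

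Snai2 signals on 1447643_x_at were 1472, 1470.0 and 1521 in KO arrays, against 2077, 1977 and 1862 in WT maxillary set 2. The groups did not overlap, and the difference was -0.36 ± 0.06, or 1.28-fold lower in KO (limma adjusted p = 0.00303). On 1418673_at, KO arrays read 339, 361 and 251, against 447, 546 and 489.8 in set 2, with a difference of -0.60 ± 0.14 (limma adjusted p = 0.0357). This second call held in 1 of the 6 fits that left out an array, with adjusted p between 0.0321 and 0.220, and 0.0578 with the replicate number as a block (replicate block). The probe set 1447643_x_at carries the suffix of probe sets that may cross-hybridise, and its call held in all 6 of those fits but was lost without the variance trend (limma adjusted p = 0.0761).

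These 3 genes, 1 higher and 2 lower, and 6 of the 13 probe sets, 2 higher and 4 lower, stood beside 1.30% of all genes and 0.913% of all probe sets called. The median difference of the 7 genes was -0.21, and that of all genes was 0.00 to 2 decimals. Twist1 read 1808, 1818 and 1542 in KO arrays, against 1578, 1617 and 1729 in set 2, which overlapped, and gave 0.09 ± 0.07 (limma adjusted p = 0.750). Twist2 read 483, 483 and 486 in KO arrays, against 617, 593 and 624 in set 2. Its groups did not overlap, and the difference of -0.30 ± 0.09 missed the threshold (limma adjusted p = 0.163). Snai1 gave 0.33 ± 0.11 (limma adjusted p = 0.242), again without overlap, and the Tfap2b probe sets gave -0.21 ± 0.12 and 0.18 ± 0.12.

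Set against the other WT maxillary group, set 1, the KO arrays kept the directions of the 3 called genes. Tfap2a was 0.38 and 0.47 higher on the same 2 probe sets (limma adjusted p = 0.00783 and 0.00674), Tfap2c gave -0.73 on 1436392_s_at (0.000304), and Snai2 gave -0.32 on 1447643_x_at (0.00141). Twist2 was called there too, at -0.37 ± 0.09 (limma adjusted p = 0.0111). Snai1 changed sign, to -0.22 ± 0.11 (limma adjusted p = 0.254). So did Twist1 (-0.03 ± 0.07, limma adjusted p = 0.868) and Tfap2b on 1423340_at (-0.38 ± 0.12, 0.0503). The dim Tfap2a probe set 1421995_at changed sign too, to -0.16 ± 0.14 (limma adjusted p = 0.540). In all, 4 member genes were called against set 1, beside 11.9% of all genes.

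**Figure D2:**
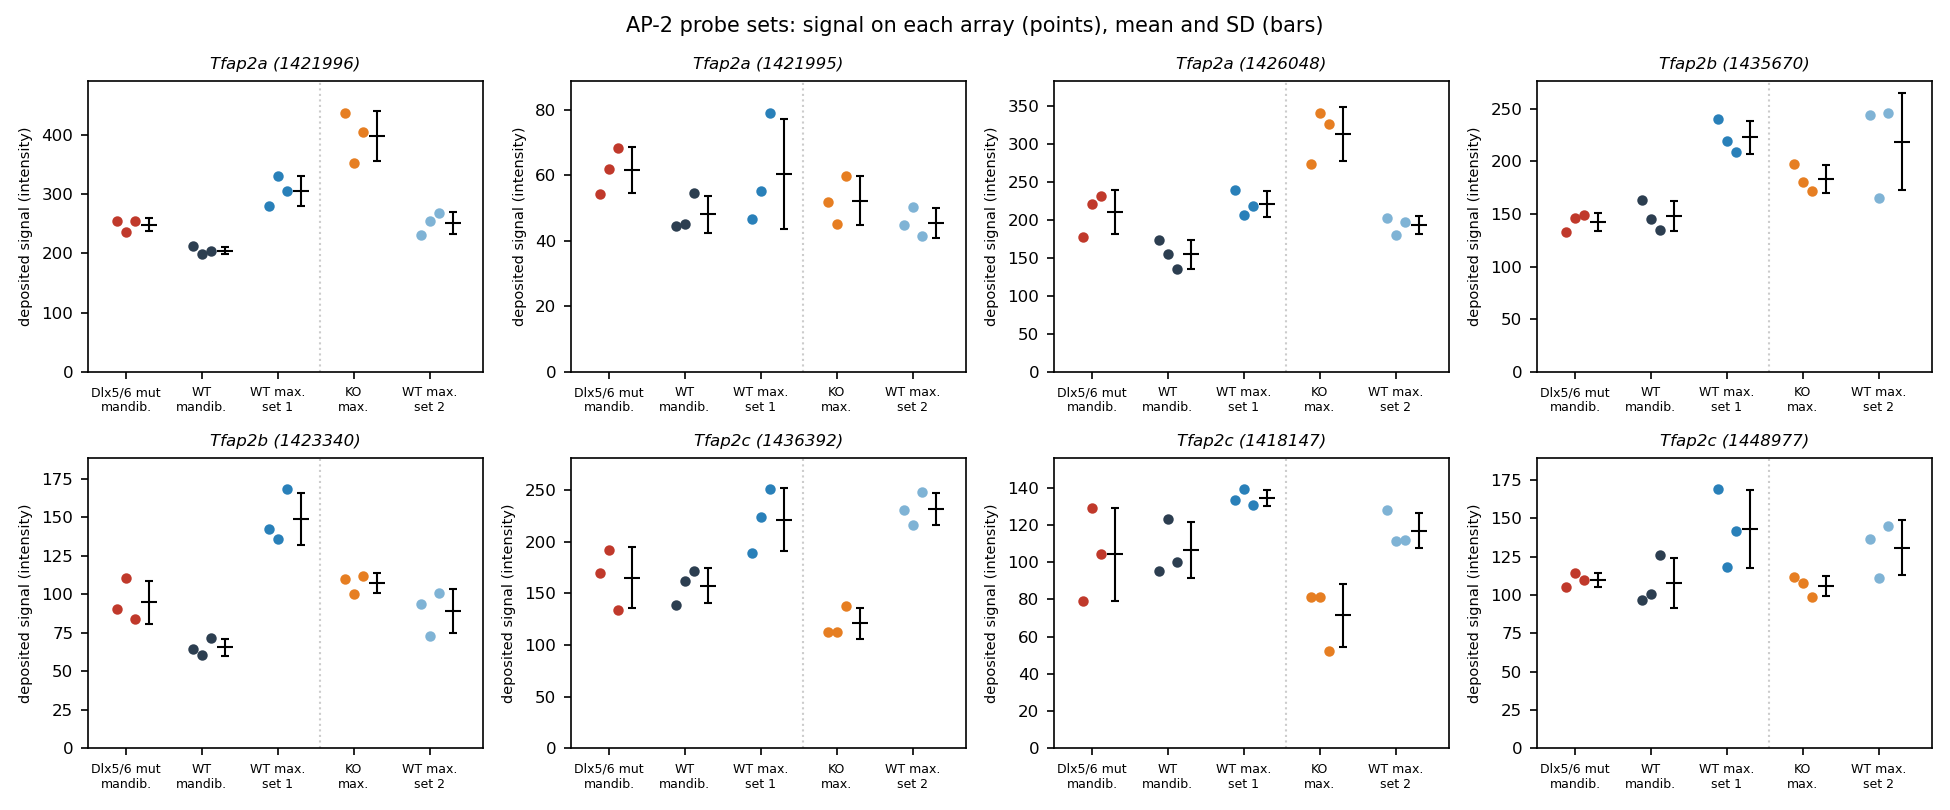
Deposited signal (linear, axis starting at 0) of the 8 AP-2 probe sets in each array; points are arrays, bars are group means with SD (n = 3), and the dotted line separates the spike-in array sets. KO arrays are highest on the Tfap2a probe sets 1421996_at and 1426048_s_at and have the lowest mean on the Tfap2c probe set 1436392_s_at, while WT mandibular arrays lie below WT maxillary set 1 on both Tfap2b probe sets.

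Between the wild-type branches, 5 of the 7 genes were lower in the mandibular branch than in WT maxillary set 1 and none was called higher: Twist1, Snai1, Snai2, Tfap2a and Tfap2b. Background was 3.75% of genes and 2.64% of probe sets called, and 7 of the 13 member probe sets were called. The median difference of the 7 genes was -0.44, and that of all genes was 0.00 to 2 decimals. This comparison uses the same WT mandibular arrays as the Dlx5/6 comparison, so the Twist1 and Snai1 values of both rest on one set of WT mandibular signals.

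Twist1 signals were 1284, 1273 and 1486 in WT mandibular arrays, against 1703, 1701 and 1825 in set 1, with no overlap and a difference of -0.39 ± 0.07 (limma adjusted p = 0.00196). Snai1 signals were 178, 156 and 154 in WT mandibular arrays, against 223, 289 and 219 in set 1, a difference of -0.50 ± 0.11 (limma adjusted p = 0.0126). Snai1 lost its call without WT mandibular array 2 or 3, or set 1 array 2, with an adjusted p of up to 0.112. Against WT maxillary set 2 the sign turned, and Snai1 gave 0.049 ± 0.11 (limma adjusted p = 0.860). Snai2 signals on 1447643_x_at were 1484, 1376 and 1324 in WT mandibular arrays, against 1980.3, 1701 and 1938 in set 1, a difference of -0.44 ± 0.06 (limma adjusted p = 7.42e-05). Its other probe set gave a like value, -0.46 ± 0.14, that missed the threshold (limma adjusted p = 0.0908).

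Tfap2a on 1421996_at read 211, 198 and 204 in WT mandibular arrays, against 279, 329.6 and 306 in set 1, a difference of -0.51 ± 0.09 (limma adjusted p = 0.00127). Its probe set 1426048_s_at gave -0.45 ± 0.11 (limma adjusted p = 0.0259), a call that held in 2 of the 6 fits that left out an array, with adjusted p of up to 0.157 in the others, and 1421995_at gave -0.17 ± 0.14. Tfap2b read 163, 145 and 135 in WT mandibular arrays, against 240.2, 219 and 209 in set 1 on 1435670_at, a difference of -0.50 ± 0.12 (limma adjusted p = 0.0151). Tfap2b on that probe set lost its call without WT mandibular array 2 or 3, or set 1 array 1, with an adjusted p of up to 0.0896. On its second probe set, 1423340_at, Tfap2b read 64.6, 60.6 and 71.4 in WT mandibular arrays, against 143, 136 and 168 in set 1. That was the widest member difference between the branches, -0.87 ± 0.12 or 1.82-fold lower in the mandibular branch (limma adjusted p = 7.38e-05). It held in all 6 fits that left out an array, but against WT maxillary set 2 it was -0.30 ± 0.12 and not called (limma adjusted p = 0.129).

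Twist2 was not called between the wild-type branches (0.11 ± 0.09, limma adjusted p = 0.709), and neither was Tfap2c (-0.41 ± 0.12 on 1436392_s_at, limma adjusted p = 0.0799). Against WT maxillary set 2, on the other side of the spike-in split, Twist1 (-0.27), Snai2 (-0.47), Tfap2b (-0.48) and Tfap2c (-0.50) were called lower in WT mandibular arrays, beside 11.8% of all genes. The limma adjusted p values were 0.0170, 1.59e-05, 0.00836 and 0.00942, and Tfap2a missed the threshold at -0.28 (0.0529). The 2 WT maxillary groups themselves differed for Snai1, which was lower in set 2 (-0.54 ± 0.11, limma adjusted p = 0.00309), and for Tfap2b on 1423340_at (-0.56 ± 0.12, 0.00526). Snai1 was the 1 member gene called between set 2 and set 1, beside 9.25% of all genes.

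Set against WT maxillary set 1, the Dlx5/6 mutant mandibular arrays differed in 1 of the 7 genes, Tfap2b, beside 0.832% of all genes. Twist1 gave 0.06 ± 0.07 (95% interval -0.10 to 0.21) and Snai1 0.07 ± 0.11 (95% interval -0.17 to 0.30), and the arrays of the 2 groups overlapped for both. Tfap2b read 133, 146 and 149 in Dlx5/6 mutant mandibular arrays, against 240.2, 219 and 209 in set 1, a difference of -0.52 ± 0.12 (limma adjusted p = 0.0369). Its call was lost when any 1 of the 6 arrays was left out, with adjusted p between 0.0702 and 0.184. Snai2 on 1447643_x_at and Tfap2a on 1421996_at gave -0.23 ± 0.06 and -0.25 ± 0.09, and neither was called (limma adjusted p = 0.140 and 0.388). Against set 2 instead, across the spike-in split, 4 member genes were called beside 11.7% of all genes. Snai1 was higher in the mutant there, without overlap (0.61 ± 0.11, limma adjusted p = 0.000782), unlike against set 1. Snai2 (-0.26), Tfap2b (-0.50) and Tfap2c (-0.43) were lower (limma adjusted p = 0.00838, 0.00633 and 0.0240). Twist1 gave 0.17 ± 0.07 and was not called (limma adjusted p = 0.142).

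**Figure D3:**
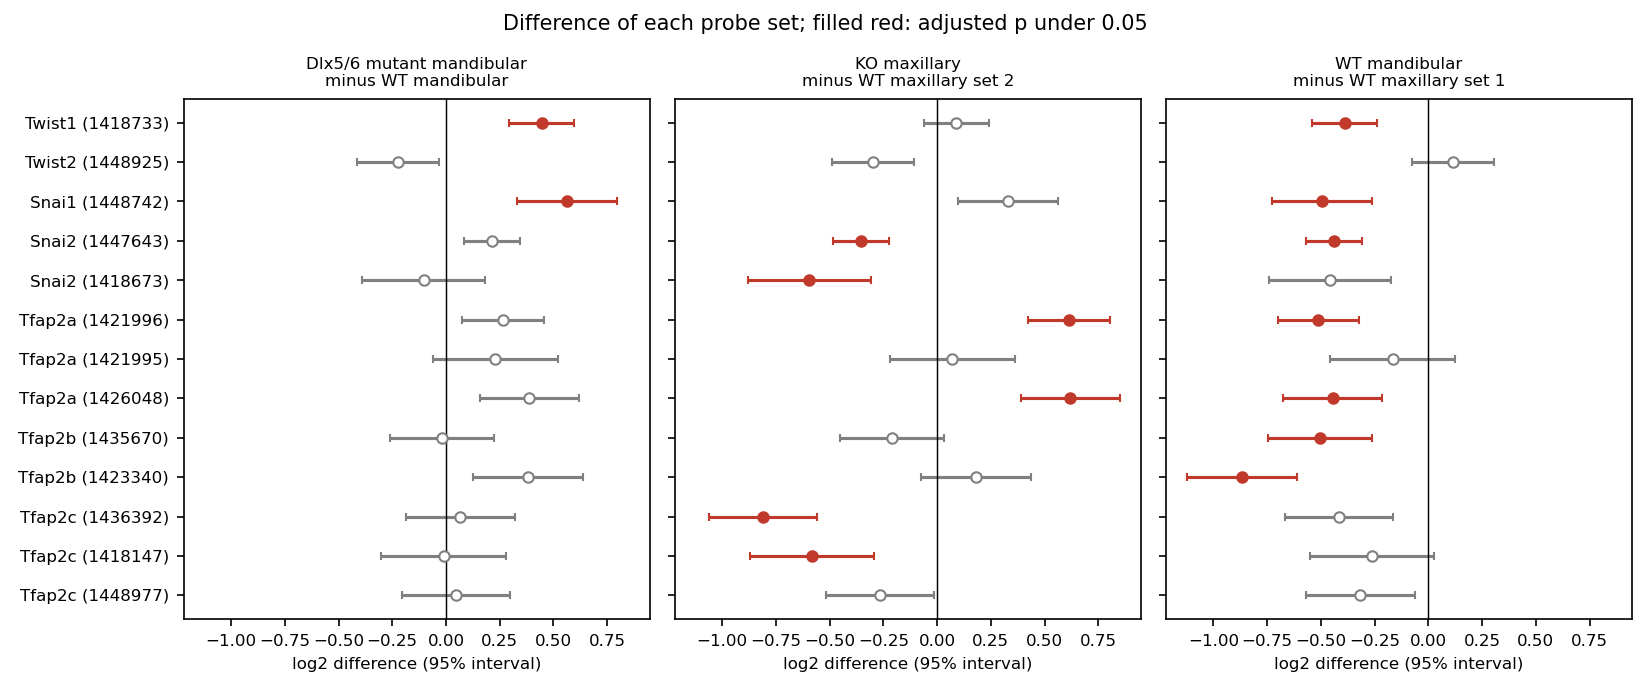
Log2 difference with its 95% interval for each of the 13 member probe sets in 3 comparisons within a spike-in array set; filled red points are called (limma adjusted p under 0.05). Twist1 and Snai1 are filled to the right of 0 for Dlx5/6 mutant minus WT mandibular, and Tfap2a to the right and Tfap2c and Snai2 to the left for KO minus WT maxillary set 2.

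The Dlx5/6 and KO effects share no arrays and could be subtracted from each other. Their difference (Dlx5/6 effect minus KO effect) was called for Snai2 and Tfap2c, 2 of the 7 genes, beside 1.49% of all genes. Snai2 on 1447643_x_at gave 0.57 ± 0.09 (limma adjusted p = 0.000559), made up of 0.21 in the Dlx5/6 comparison and -0.36 in the KO comparison. Tfap2c on 1436392_s_at gave 0.88 ± 0.17 (limma adjusted p = 0.00743), made up of 0.07 and -0.81. The other probe sets of both genes pointed the same way without a call, at 0.49 ± 0.19 for Snai2 (limma adjusted p = 0.356) and at 0.57 ± 0.20 and 0.31 ± 0.17 for Tfap2c (0.248 and 0.587). For Twist1, called for Dlx5/6 and not for KO, the effects were not shown to differ (0.36 ± 0.10, limma adjusted p = 0.127), and likewise for Tfap2a, called for KO and not for Dlx5/6 (-0.35 ± 0.13, limma adjusted p = 0.299). With set 1 as the KO control, across the spike-in split, 4 genes were called, beside 8.30% of all genes. They were Twist1 (0.47), Snai1 (0.78), Snai2 (0.54) and Tfap2c (0.80), with limma adjusted p of 0.00531, 0.00311, 0.000378 and 0.00501. The Twist1 result thus depended on the control.

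**Figure D4:**
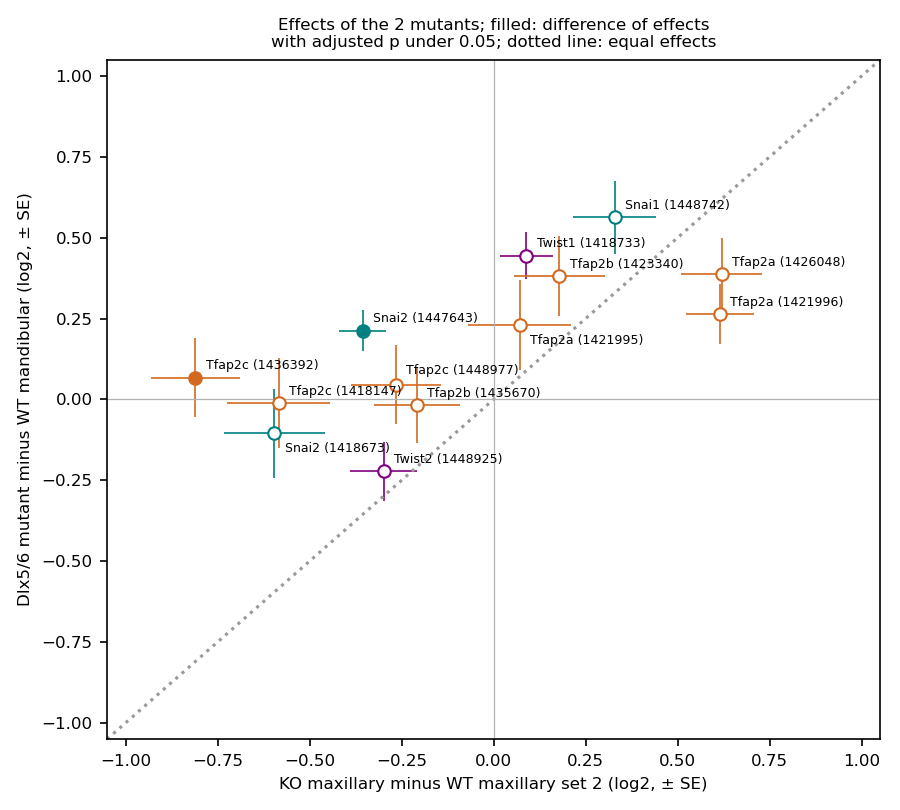
Log2 difference of Dlx5/6 mutant minus WT mandibular (vertical axis) and of KO maxillary minus WT maxillary set 2 (horizontal axis) for the 13 member probe sets, with SE bars; the dotted line marks equal effects and filled points differ by the test. The Tfap2c probe set 1436392_s_at (0.07 and -0.81) and the Snai2 probe set 1447643_x_at (0.21 and -0.36) are the 2 whose effects differed by the test.

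Ranked over all 5 groups, most neighbours did not differ beyond their spread. Twist1 was highest in Dlx5/6 mutant mandibular arrays (1842 ± 77.8, SD, n = 3), followed by set 1, KO and set 2, none of which differed from its neighbour, and lowest in WT mandibular arrays (1348 ± 120.2). The step between set 2 and WT mandibular was called (limma adjusted p = 0.0170), and it crosses the spike-in split. Snai1 followed nearly the same order, with set 2 last, and none of its neighbours were called apart. Tfap2a on 1421996_at was highest in KO (398 ± 42.9), followed by set 1, set 2, Dlx5/6 mutant mandibular and WT mandibular (205 ± 6.52). The step between KO and set 1 was the 1 called step, and it too crosses the spike-in split. Snai2 on 1447643_x_at was highest in set 2 and set 1, followed by Dlx5/6 mutant mandibular, KO and WT mandibular, with no called step. Twist2 was highest in WT mandibular arrays (708 ± 88.8) and lowest in KO arrays (484 ± 1.95), also with no called step. Tfap2b on 1435670_at was highest in set 1 (223 in the mean) and lowest in Dlx5/6 mutant mandibular arrays (143 ± 8.41), and Tfap2c on 1436392_s_at highest in set 2 (232 ± 15.9) and lowest in KO (121 ± 14.9).

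Genes whose normalised log2 signals were most like each member over the 15 arrays were found by Pearson correlation among 13933 other genes, as a description in which the arrays share groups and spike-in sets. Twist1 was closest to Ttc28 (r = 0.90), Ebf2 (0.87) and Tmem30b (0.87), and Twist2 to Siva1 (0.87), Casp2 (0.87) and Cyb5r4 (0.86). Snai1 was closest to Lss (0.91), Plvap (0.90) and Fn1 (0.88), and Snai2 to Prkd1 (0.91), Mpped2 (0.91) and Cdh19 (0.89). Tfap2a was closest to Pou3f4 (0.92), Cartpt (0.92) and Arhgdib (0.92), Tfap2b to Elavl2 (0.87), Fabp7 (0.86) and Fap (0.86), and Tfap2c to Lrba (0.92), Sim2 (0.86) and Shisa3 (0.85). Cdh19, Cartpt and Sim2 were dim, with mean signals of 16.7, 36.0 and 47.3 beside array medians of 26.6 to 33.4, so their correlations rest on low signals.

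Genes that work with these factors were described from 5 lists. In Dlx5/6 mutant against WT mandibular arrays, where 3.24% of all genes were called, 2 of 10 bHLH partners and Id inhibitors fell and none was called higher. Both were Hand factors, bHLH proteins known to dimerise with Twist1, with Hand2 at -2.90 ± 0.13 (limma adjusted p = 6.02e-13) and Hand1 at -1.09 ± 0.16 (0.000149). The E protein and Id genes of that list were not called. Of 12 measured Twist-linked mesenchyme and FGF genes (14 listed), 4 rose and none fell: Alx1 (0.99 ± 0.08), Tbx2 (0.69 ± 0.09), Prrx2 (0.50 ± 0.07) and Tbx3 (0.42 ± 0.10), which encode homeodomain and T-box factors of facial and limb mesenchyme. The list's median was 0.05 beside -0.01 for all genes, and its 8 uncalled genes lay on both sides of 0.

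Of 9 measured AP-2 relatives and cofactors in the same comparison, Cited2, a coactivator of AP-2 proteins, rose by 0.59 ± 0.07 (limma adjusted p = 1.62e-05) and its relative Cited1 fell by 1.47 ± 0.10 on the log2 scale (1.3e-09). Of 13 measured crest specifiers, Myc (0.58 ± 0.12) and Sox5 (0.42 ± 0.11) rose, and Msx1, a homeodomain factor of arch mesenchyme, fell by 0.50. Of 16 EMT and cell adhesion genes, the mesenchymal cadherin Cdh11 rose by 0.31 ± 0.07 and Cdh6 fell by 0.61 on the log2 scale, and 14 did not pass, among them E-cadherin (Cdh1), the classic Snail target.

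In KO against WT maxillary set 2, where 1.30% of all genes were called, each list held between 1 and 3 called genes. Crest specifiers gave 2 higher and 1 lower of 13: Zic1 rose by 0.93 ± 0.19, Id3, an inhibitor of bHLH dimers that is also on the bHLH list, rose by 0.27 ± 0.06, and Msx2 fell by 0.36 on the log2 scale. Id3 was the 1 called gene of the 10 bHLH partners and Id inhibitors. Of the AP-2 relatives and cofactors, Kctd1, a repressor of AP-2 activity, rose by 0.52 ± 0.09 (limma adjusted p = 0.00303), 1 of 9. Of the EMT and cell adhesion genes, Vim (vimentin, an intermediate filament of mesenchyme) rose by 0.39 ± 0.07, 1 of 16. Of the Twist-linked genes Alx1 rose by 0.37 ± 0.08, and Msx2 and Prrx1 fell, the second by 0.28 on the log2 scale.

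Between WT mandibular and WT maxillary set 1, where 3.75% of all genes were called, the Hand genes were higher in the mandibular branch, Hand2 by 5.24 ± 0.13 and Hand1 by 1.47 ± 0.16, and so was Cited1 by 2.43 ± 0.10. Cited2 was lower in WT mandibular arrays (-0.60 ± 0.07). Of the 12 Twist-linked genes 5 were lower, with Alx1 (-1.60 ± 0.08), Tbx2 (-1.01 ± 0.09), Prrx2 (-0.81 ± 0.07) and Tbx3 (-0.68 ± 0.10) in front, and Pdgfra was higher (0.33 ± 0.06). Pdgfra and the fifth lower gene, Prrx1 (-0.30 ± 0.06), lie outside the 4 largest and were named after their values were seen. Crest specifiers gave 3 lower of 13, Sox10 (-1.62 ± 0.17), Pax3 (-1.44 ± 0.14) and Sox5 (-0.48 ± 0.11). EMT and cell adhesion genes gave 3 lower of 16, Mmp14 (-0.49 ± 0.08), Cdh11 (-0.41 ± 0.07) and Vim (-0.27 ± 0.07). Medians of all 5 lists lay between -0.14 and 0.15 in this comparison, beside -0.44 for the 7 member genes.

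**Figure D5:**
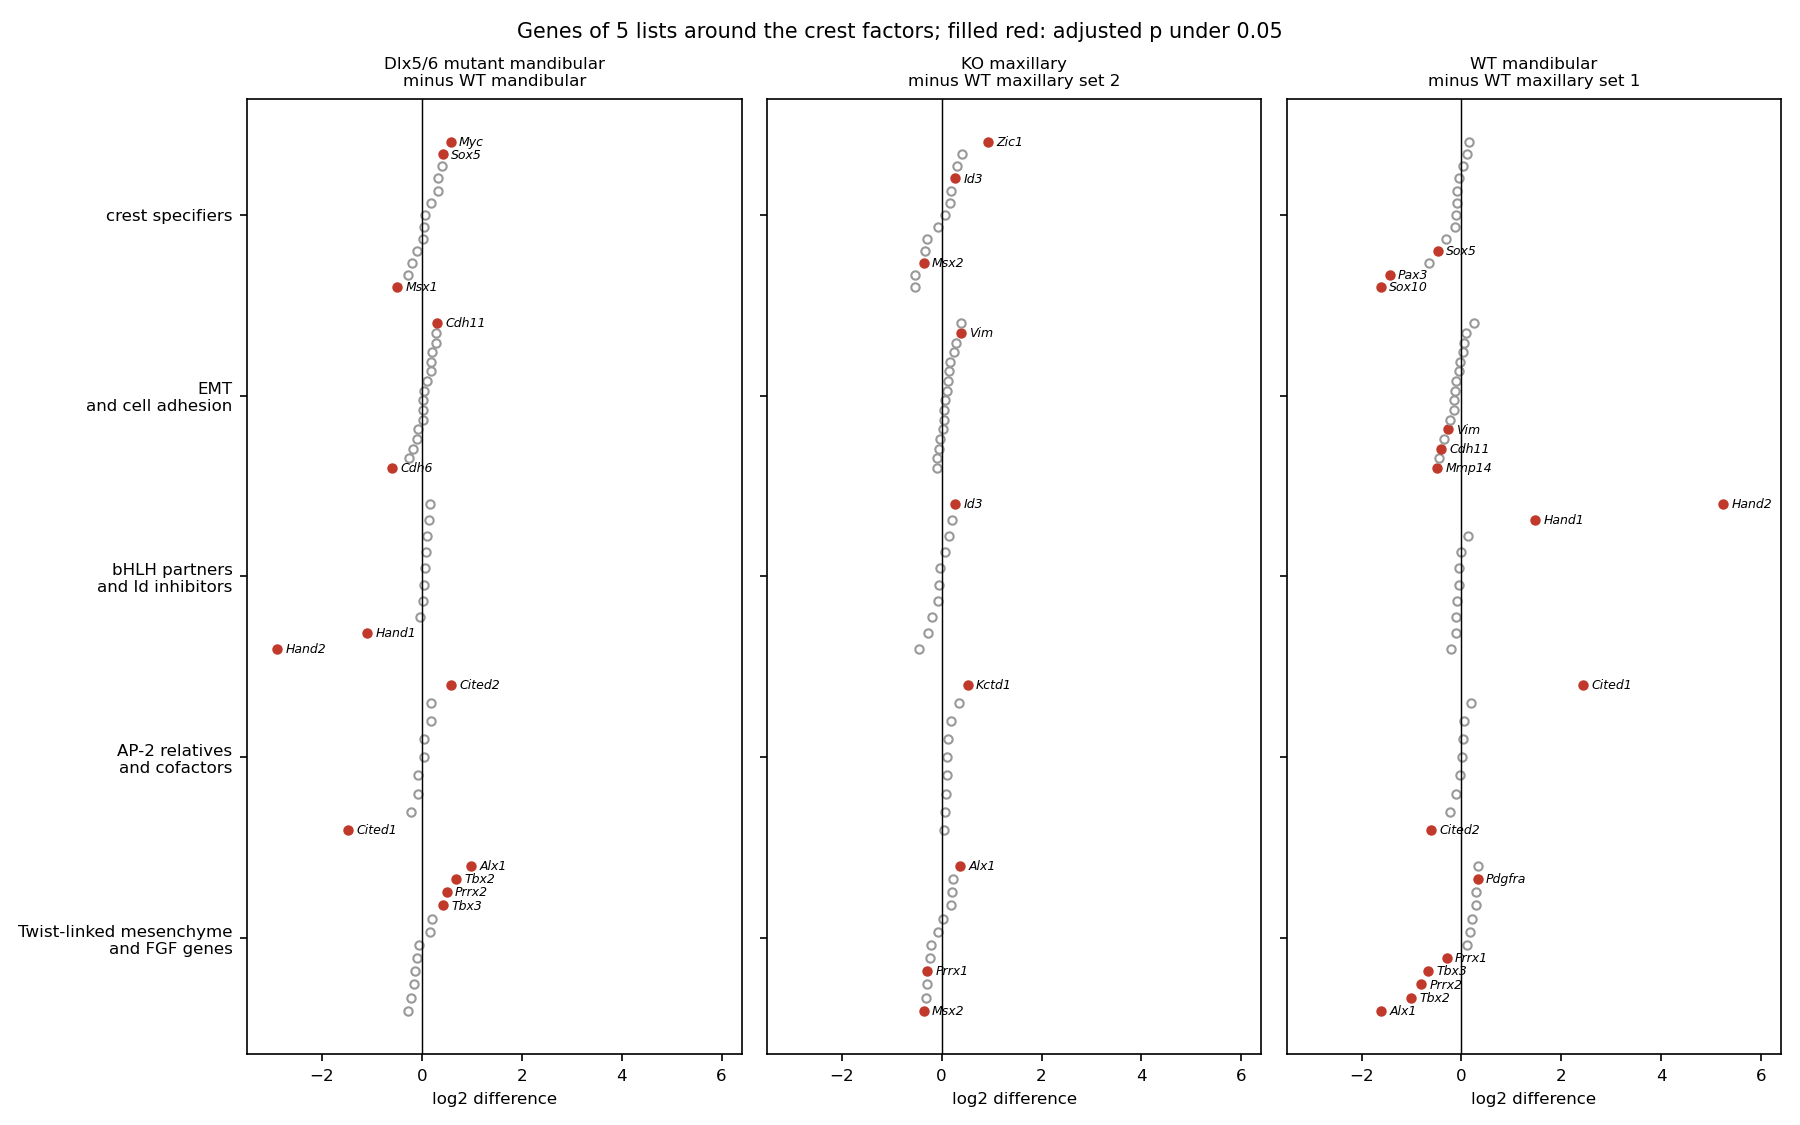
Log2 difference of each measured gene of the 5 lists in Dlx5/6 mutant minus WT mandibular, KO minus WT maxillary set 2 and WT mandibular minus WT maxillary set 1, sorted within each list; filled red points, named, are called (limma adjusted p under 0.05). Hand2 and Hand1 lie left of 0 in the first panel and right of 0 in the third, and Alx1 the other way round.

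Cell type markers were summed per array from the deposited signals, because the members are expressed in more than one tissue of the arch. Crest mesenchyme markers, the tissue in which Twist factors act, summed to between 13028 and 13287 in Dlx5/6 mutant mandibular arrays, against between 10526 and 10779 in WT mandibular arrays. In that comparison 3 of 9 measured markers (10 listed) rose, Alx1, Prrx2 and Col1a2, and none was called lower. Alx1 and Prrx2 are also on the Twist-linked list. Among the uncalled markers Pdgfra alone pointed lower (-0.15 ± 0.06, limma adjusted p = 0.223). Called markers and Pdgfra are named here after their values were seen. The mesenchyme sum, in which the brightest markers weigh most, moved the same way as Twist1 and Snai1. Its part in those results was not tested. In KO arrays it lay between 13066 and 13592, against between 11267 and 12163 in set 2, with Alx1, Col1a2 and Col3a1 higher and Prrx1 lower. Between the wild-type branches it lay between 10526 and 10779 in WT mandibular arrays, against between 12495 and 13018 in set 1. There 5 of 9 markers were lower and 1, Pdgfra, was higher. It was thus lower along with Twist1, Snai1 and Snai2 there, and its part was not tested.

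Epithelial markers, from the tissue in which Tfap2a and Tfap2c also act, summed to between 3179 and 3280 in KO arrays, against between 2864 and 2964 in set 2, and 0 of 13 measured markers (14 listed) was called in that limma comparison. The epithelial sum was thus higher in KO, in the direction of Tfap2a and opposite to Tfap2c, and its part was not tested. It overlapped between Dlx5/6 mutant and WT mandibular arrays, at 3197 to 3364 and 3225 to 3287. Endothelial markers summed to between 1659 and 1992 in KO arrays, against between 1337 and 1427 in set 2 (1 of 10 higher, Emcn). Macrophage markers summed to between 528 and 602 in Dlx5/6 mutant arrays, against between 345 and 383 in WT mandibular arrays, and to between 799 and 885 in KO arrays, against between 577 and 593 in set 2, with 1 of 10 higher each time, Csf1r.

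Sensory neuron markers set WT maxillary set 1 apart from every other group. They summed to between 518 and 571 in WT mandibular arrays, against between 2975 and 3086 in set 1, and all 11 measured markers (12 listed) were lower in the mandibular branch. Dlx5/6 mutant mandibular arrays lay at 587 to 669, above the WT mandibular arrays, with 2 of 11 markers higher (Neurod1 and Sst) and 0 lower. The part of this difference in the Twist1 and Snai1 results was not tested. The sum was 1004 to 1014 in KO arrays, against 1219 to 1270 in set 2, with 3 of 11 markers lower (Nefl, Nefm and Neurog1). Isl1 (0.42 ± 0.10, limma adjusted p = 0.0588) and Elavl4 (0.11 ± 0.15, 0.877) pointed the other way. Isl1 is also on the arch mesoderm and muscle list. The neuron sum stands beside the KO changes in Tfap2a, Tfap2c and Snai2, and its part was not tested. Glial markers went with the neuron markers between the wild-type branches, at 197 to 256 in WT mandibular arrays and 622 to 801 in set 1. Of 5 measured glial markers (7 listed) 3 were lower, Sox10, Fabp7 and Erbb3. The Tfap2b, Snai2, Sox10 and Pax3 values between the wild-type branches stand beside this difference, whose part was not tested. In Dlx5/6 mutant mandibular arrays against set 1, all 11 measured neuron markers and 3 of 5 glial markers were lower too. The Tfap2b call of that comparison stands beside those lower markers, whose part was not tested either. Erythroid sums (6 of 8 listed markers measured) ran between 26339 and 34152 over the 15 arrays. Arch mesoderm and muscle markers gave 448.7 to 541 in Dlx5/6 mutant arrays against 698 to 702 in WT mandibular arrays, with 1 of 8 lower (Myf5). In KO arrays they gave 655 to 686, against 439 to 518 in set 2, with 1 of 8 higher (Lhx2). Forebrain and eye markers, 3 of 8 measured, gave 47.6 to 91.4 in KO arrays against 139 to 188 in set 2, with 1 lower (Emx2). The other measured ones, Six3 (-0.03 ± 0.26) and Pax6 (-0.11 ± 0.19), were not called. Markers left out as dim were Meox1, Prph, Hba-a1, Otx2, Six6 and Rax, and the other unmeasured markers had no probe set that named them alone.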

How the data were processed

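Each probe set had 1 deposited intensity per array on a linear scale, already scaled by the authors, since each array's mean with 2% trimmed at both ends was 150.0; summary software and background correction are not given in the sources used here. They were taken as log2(intensity + 32), which understates changes of dim genes, and quantile normalised. Of 45101 probe sets, 31643 were kept: 64 controls were dropped, and a probe set had to exceed the 40th percentile of 3 or more arrays. Symbols came from GEO's platform annotation (34958 probe sets with 1, 932 with several, 9211 with none), and 34754 identifiers matched RefSeq. A gene was read by its brightest probe set. One limma 3.58.1 model (R 4.3.3) with a mean per group was fitted to all 15 arrays, with 10 residual degrees of freedom and an intensity trend. Tests were two-sided, and p-values were adjusted by Benjamini and Hochberg over all 31643 probe sets. The number of arrays limits the precision.

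Named genes were the 7 members with every probe set, up to 4 called genes per list and comparison, the 3 most correlated genes per member, and Dlx1, Dlx2, Dlx5 and Dlx6; marker lists were given as counts and sums. Members, lists and comparisons were chosen with earlier results of these data known. Alternatives were other scalings, pseudocounts, filters, variance models, samples in the fit, thresholds, controls, array weights, a replicate block and leaving out each array; reading each gene by a more specific probe set was added after seeing the data. Over 30 pairs of same-numbered arrays in different groups the residual correlation ran between -0.10 and 0.08, so the numbers were not taken as pairs. The procedure was tested on simulated data.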

Additional observations from a re-analysis of the deposited data

Results flagged for a closer look

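The effect of the mutation differed between the Dlx5/6 mutant mandibular and the KO maxillary comparison for a pair of members, by a test of the difference itself. For Tfap2c on 1436392_s_at the Dlx5/6 effect minus the KO effect was 0.88 on the log2 scale (limma adjusted p = 0.00743), and the difference stayed called in all 12 fits that left out an array, with adjusted p between 0.00194 and 0.0335. For Snai2 on 1447643_x_at it was 0.57 (limma adjusted p = 0.000559), and it too was called in all 12 of those fits, with adjusted p between 0.000246 and 0.00338. Both rest on probe sets whose suffix marks possible binding of other transcripts, and no other probe set of either gene was called for this difference. Branch and mutation changed together between the 2 comparisons, so they cannot be told apart here.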

How the results depend on the processing

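Of 1352 results of single member probe sets under other settings, 1269 kept their call and direction, 56 lost a call, 26 gained one and 1 called value was reversed. The reversed value was Snai1 between the wild-type branches, which was 0.049 (limma adjusted p = 0.860) with WT maxillary set 2 as control. Of the 7 genes, 2 were called in Dlx5/6 mutant against WT mandibular arrays, and between 1 and 3 when 1 array was left out. Against WT maxillary set 1 the mutant's 1 called gene, Tfap2b, fell to 0 called at an adjusted p under 0.01, with arrays shifted to a common median, without a variance trend, with no filter, and in all fits that left out an array (0 to 0), and 4 were called with set 2 as control. Between the wild-type branches 5 were called, 3 at an adjusted p under 0.01, and 3 to 5 with an array left out. The 3 genes called in KO against WT maxillary set 2 stayed within 1.5 times that count under all alternatives run. Single calls were still lost, that of Snai2 on 1447643_x_at without a variance trend. Tfap2c lost its call where probe sets not marked as cross-hybridising were preferred, since 1448977_at gave -0.27 (limma adjusted p = 0.456). The difference of the mutant effects was called for 2 genes, for 0 where probe sets not marked as cross-hybridising were preferred, and for 4 with set 1 as KO control. With the replicate block 2 genes were called for Dlx5/6 against WT mandibular, 3 for KO against set 2 and 5 for the wild-type branches. It was 1 for Dlx5/6 mutant against set 1 and 2 for the difference of the mutant effects. The main shares of all genes were 3.24%, 1.30%, 3.75%, 0.832% and 1.49% in that order. With the block 1 probe set call was lost, Snai2 on 1418673_at in KO against set 2, where 260 of all 31643 probe sets were called. Other counts in this paragraph stand without the share of all genes under their setting, so they show only whether member calls held. The cause of these changes was not tested.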
